A study of Mus musculus with 52 samples.

Results

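The 41 genes described here belong to the interferon response and to class I antigen presentation. They were taken by symbol from a fixed list, which was chosen with earlier results of these data known. Each of the 41 matched a row of the deposited count table of 55487 genes. All 41 also passed the filter on low counts that left 16668 genes for testing, so no member is missing from the counts below. They were ordered by role into 10 regulators, 16 antiviral effectors, 11 interferon-induced GTPases and 4 genes of class I antigen presentation.

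Interferons are secreted signals that act through paired receptors and Jak kinases on transcription factors. Type I interferon assembles a complex with Stat2 and Irf9 that binds the interferon-stimulated response element (ISRE), whereas interferon gamma acts on the gamma-activated sequence (GAS). The targets include effectors that block virus replication, guanylate-binding proteins (Gbp) and immunity-related GTPases (Irgm1, Irgm2, Igtp, Iigp1) that attack intracellular pathogens, and the machinery that loads peptides onto class I molecules. Skeletal muscle fibres carry little class I protein at rest, and macrophages and endothelium within the muscle also express these genes.

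The study measured total RNA, depleted of ribosomal RNA, from the gastrocnemius, a calf muscle. The mice were C57BL/6 males aged 22 to 24 months. The 52 libraries form 13 groups of 4. One group was ambulatory and drank water (AMB_W). The other 12 groups underwent hindlimb unloading, a model of muscle disuse, and were sampled at its end (HU) or after 7 or 14 d of reloading (RL7, RL14), and at each time mice drank water (W), metformin (M), leucine (L) or both (ML). Metformin is a glucose-lowering drug, and leucine is a branched-chain amino acid that activates mTORC1 signalling in muscle. No ambulatory group received either compound, and the length of unloading was not given in the labels. Libraries are named by group and by the replicate number in the labels, as in RL14_L 2. Nothing in the labels ties a number to a cage or day. Each library is taken as 1 animal, and the p-values measure the spread between these libraries.

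Library totals ran from 15605044 to 32492548 counts. Levels are counts scaled to the library size corrected by TMM factors (CPM). A gene is said to have risen or fallen where edgeR's quasi-likelihood test, fitted on all 52 libraries, gave a Benjamini-Hochberg adjusted p under 0.05 over all 16668 genes. Fold changes are log2 values with their standard error (SE). The median SE of a comparison between 2 groups lay between 0.225 and 0.231 on the log2 scale. Summed skeletal muscle markers lay between 72311 and 121430 CPM in every library. A 5.8S ribosomal RNA gene separated libraries in a way that does not follow time alone. It lay between 0.294 and 7.39 CPM in the 16 RL7 libraries, the 4 RL14_W libraries and HU_ML 5 and 6, which carry consecutive library numbers in the labels (19 to 40), and between 5.41 and 33.03 CPM in the other 30. This run was picked out after the values were seen. The RL14_W libraries lay at 0.294 to 0.998 CPM and the 12 other RL14 libraries at 9.15 to 33.03 CPM, so water and each compound at 14 d did not overlap on it.

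Promoter sequences, from RefSeq on GRCm38.p6, were found for 31 of the 41 genes. They cover 250 bases before to 50 bases after the annotated start. Both strands were searched for the ISRE, as GAAA and GAAA with any 2 bases between them, and for the GAS, as TTCNNNGAA. Overlapping matches were counted. An ISRE match was present in 17 of the 31 genes (54.84%), against 3.993% of 27025 genes with such a window. A GAS match was present in 11 of 31 (35.48%), against 9.554%. The ISRE match was in 7 of 7 GTPase genes with a sequence, 6 of 11 effector genes, 3 of 9 regulator genes and 1 of 4 class I genes. A match is a description of the letters and not a measured binding site. The 250 bases before the start are shown for 5 genes, 5′ to 3′ on the strand of the gene, with ISRE matches in capitals. They are Isg15, Bst2 and Gbp7, which are effectors or GTPases with a match, B2m, the 1 class I gene with a match, and Irf5, the regulator with the largest difference across time, which had none in this window. They lie at chr4:156200819-156201068 (minus strand, Isg15), chr8:71537473-71537722 (minus, Bst2), chr3:142530086-142530335 (plus, Gbp7), chr2:122147437-122147686 (plus, B2m) and chr6:29526375-29526624 (plus, Irf5).

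Isg15: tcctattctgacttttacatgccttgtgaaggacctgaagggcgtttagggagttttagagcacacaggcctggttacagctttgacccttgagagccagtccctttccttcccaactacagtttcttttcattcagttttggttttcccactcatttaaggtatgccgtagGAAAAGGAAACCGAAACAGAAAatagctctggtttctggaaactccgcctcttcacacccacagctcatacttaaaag

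Bst2: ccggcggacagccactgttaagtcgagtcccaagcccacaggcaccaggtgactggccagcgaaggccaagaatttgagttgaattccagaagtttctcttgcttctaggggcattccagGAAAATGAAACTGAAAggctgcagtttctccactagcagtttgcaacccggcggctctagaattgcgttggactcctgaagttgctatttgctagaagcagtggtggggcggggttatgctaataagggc

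Gbp7: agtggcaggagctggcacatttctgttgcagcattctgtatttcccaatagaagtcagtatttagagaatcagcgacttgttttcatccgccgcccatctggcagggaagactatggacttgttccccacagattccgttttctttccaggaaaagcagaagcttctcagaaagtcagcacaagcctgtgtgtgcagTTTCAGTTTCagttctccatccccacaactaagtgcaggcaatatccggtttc

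B2m: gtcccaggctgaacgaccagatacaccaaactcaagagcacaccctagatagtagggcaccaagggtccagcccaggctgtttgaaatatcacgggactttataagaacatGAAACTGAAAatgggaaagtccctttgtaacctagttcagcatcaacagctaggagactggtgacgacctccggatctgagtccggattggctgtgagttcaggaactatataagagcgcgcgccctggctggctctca

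Irf5: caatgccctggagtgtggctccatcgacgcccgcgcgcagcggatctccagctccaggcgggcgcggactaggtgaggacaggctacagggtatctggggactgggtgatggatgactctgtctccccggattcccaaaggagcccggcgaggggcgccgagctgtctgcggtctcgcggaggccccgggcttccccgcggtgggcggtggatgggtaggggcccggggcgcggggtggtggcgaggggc

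The Isg15 promoter held 3 overlapping matches, which began 78, 72 and 66 bases before the start. Bst2 held 2 overlapping matches at 130 and 124 bases before the start. Gbp7 held 1 match at 53 bases, read on the opposite strand, and B2m 1 match at 139 bases.

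In ambulatory muscle the levels spanned 3 orders of magnitude when set per kilobase of exon. B2m, the invariant light chain of class I molecules, stood highest at 117 ± 20.9 CPM per kb (SD, n = 4). The class I heavy chains followed, H2-D1 at 8.51 ± 1.46 and H2-K1 at 6.56 ± 0.929 CPM per kb, and these neighbours did not differ beyond their spread. Irf2, a repressor of interferon targets, was the regulator at the highest level, 3.69 ± 0.316 CPM per kb. The lowest levels per kb were those of Ifi44 (0.127 ± 0.0497), Oas1a (0.110 ± 0.0854) and Mx1 (0.0839 ± 0.0601), all listed as effectors, whose spreads overlapped. The interferon genes themselves were near or at 0. Ifnb1, Ifna4, Ifnk, Ifnl2 and Ifnl3 had no count in 52 of 52 libraries, Ifna2 had 1 count in all and Ifng 5 counts in all. A count of 0 allows a level of up to 3 counts, which is 0.0923 CPM in the deepest and 0.192 CPM in the shallowest library, and this covers counting error only.

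**Figure D1:**
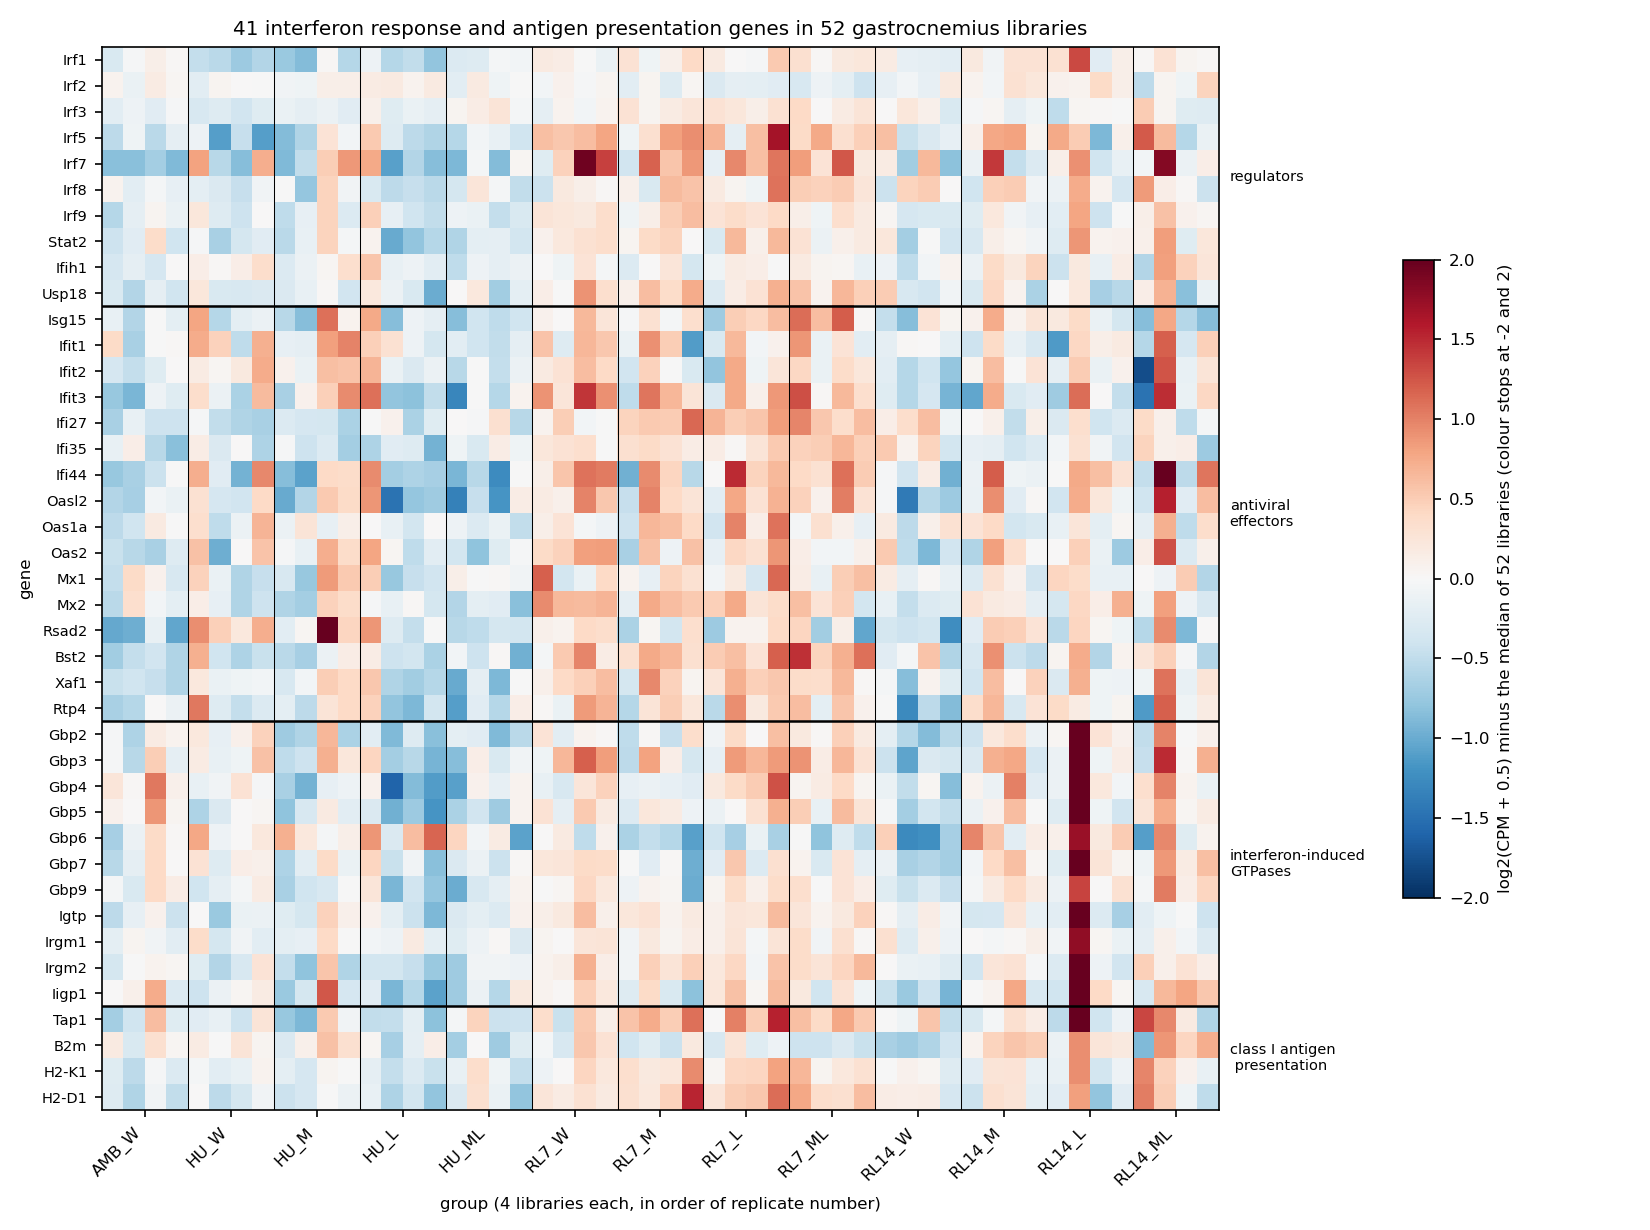
Level of the 41 genes (rows, by role) in 52 libraries (columns, 4 per group), as log2(CPM + 0.5) minus the gene's median over the libraries, with colour from blue (lower) to red (higher). The 4 groups at 7 d of reloading are mostly red, and the column of RL14_L 2 is red over all 11 GTPase genes.

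The first comparison asked what unloading did to these genes in mice drinking water. None of the 41 passed the test between HU_W and AMB_W with edgeR, where 2.78% of all genes did. Of the 41 genes 3 had p under 0.05 before adjustment (13.7% of all genes did), and DESeq2 called 1 and limma-voom 2. The median log2 fold change of the 41 was 0.13, against -0.01 for all genes. Rsad2 (viperin), an enzyme that makes a chain-terminating nucleotide, came closest. It was measured at 12.7, 9.17, 7.53 and 10.95 CPM in HU_W and at 2.91, 3.00, 5.77 and 2.88 CPM in AMB_W. All 4 unloaded libraries lay above all 4 ambulatory ones, but the log2 fold change of 1.47 ± 0.45 missed the threshold (adjusted p = 0.0679).

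After 7 d of reloading the water-drinking group stood above the ambulatory group for most of the genes, although none passed the test. The estimates were higher in RL7_W for 38 of 41 genes (52.5% of all genes), with a median log2 fold change of 0.54 against 0.02 for all genes. The RL7_W and AMB_W libraries did not overlap, with RL7_W higher, for 18 of 41 genes (43.9%), against 5.31% of all genes. The effectors made up 11 of these 18, the regulators 4, the GTPases 2 and class I genes 1. With edgeR 0 genes passed, among members and among all 16668 (0% called), and 14 members had p under 0.05 before adjustment, against 8.05% of all genes. By DESeq2 also 0 members passed, and by limma-voom 1. When only the 8 libraries of these groups entered the fit, 9 members passed. The share of all genes that passed in that fit is not given here, so this count has no background beside it.

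Between unloading and 7 d of reloading with water, 2 genes rose, both at low levels. Irf5, a transcription factor that drives inflammatory cytokine genes in macrophages, was at 0.937, 0.217, 0.623 and 0.220 CPM in HU_W. It reached 1.83, 1.74, 1.86 and 2.16 CPM in RL7_W, and the groups did not overlap. Its log2 fold change was 1.92 ± 0.52 (adjusted p = 0.0214). Mx2, a GTPase of the Mx family that the annotation calls a polymorphic pseudogene, was at 0.717, 0.488, 0.226 and 0.330 CPM in HU_W. It reached 1.62, 1.23, 1.22 and 1.27 CPM in RL7_W, again without overlap, with a log2 fold change of 1.58 ± 0.45 (adjusted p = 0.0288). The 2 genes are 4.88% of the 41, and of all genes 1.97% rose and 4.88% changed in either direction. Irf1, the regulator induced most directly by interferon gamma, was at 3.42, 3.25, 2.77 and 3.14 CPM in HU_W against 5.64, 5.51, 4.89 and 4.47 CPM in RL7_W (log2 fold change 0.70 ± 0.22, adjusted p = 0.0503).

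Both calls depended on single libraries. Irf5 no longer passed without HU_W 2 (adjusted p = 0.112) or HU_W 4 (adjusted p = 0.0883). Mx2 no longer passed without HU_W 2, 3 or 4, or without RL7_W 1 or 2 (adjusted p between 0.0596 and 0.112). Without HU_W 3, RL7_W 1 or RL7_W 2 the count was 1, and without HU_W 2 or HU_W 4 it was 0. The 5.8S level lay at 2.91 to 7.39 CPM in RL7_W and 7.99 to 13.8 CPM in HU_W, without overlap. Time and 5.8S level therefore cannot be told apart in this comparison, and with 5.8S as a covariate the count was 0.

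After 14 d of reloading with water the estimates stood below those at 7 d for most genes. Between RL14_W and RL7_W 38 of 41 genes were lower (51.5% of all genes were higher), with a median log2 fold change of -0.58 against 0.01 for all genes. The groups did not overlap, with RL14_W lower, for 14 genes (34.15%), against 4.31% of all genes. None passed the edgeR test (0.0360% of all genes did). Before adjustment 14 had p under 0.05, against 11.4% of all genes, and DESeq2 called 0 and limma-voom 8. The share of all genes that limma-voom called is not given here. Against AMB_W none of the 41 passed either at 14 d (0.174% of all genes). At an unadjusted p under 0.05 there were 3 members, against 17.9% of all genes, and by DESeq2 0 and by limma-voom 3. The median was then 0.02 against 0.01.

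Against the end of unloading, 2 genes differed at 14 d in water, in opposite directions (9.72% of all genes called). Ifi27, a mitochondrial protein strongly induced by type I interferon, rose from 4.63, 3.20, 2.94 and 2.81 CPM in HU_W to 5.18, 6.16, 7.47 and 4.43 CPM in RL14_W. HU_W 1 lay above RL14_W 5, and the log2 fold change was 0.77 ± 0.22 (adjusted p = 0.0246). B2m fell from 107, 95.0, 114 and 99.7 CPM to 60.5, 58.1, 63.0 and 73.2 CPM. The 4 RL14_W libraries lay below the 4 HU_W libraries (5.8S at 0.294 to 0.998 CPM against 7.99 to 13.8 CPM), and the log2 fold change was -0.71 ± 0.24 (adjusted p = 0.0499). The Ifi27 call was lost without HU_W 2, 3 or 4 or RL14_W 3 or 4, with adjusted p between 0.0682 and 0.113. The B2m call was lost in 7 of the 8 fits that left out 1 library, all but that without RL14_W 5, with adjusted p up to 0.12. The count was 0 without HU_W 2, 3 or 4 or RL14_W 3 or 4, and 1 without HU_W 1.

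**Figure D2:**
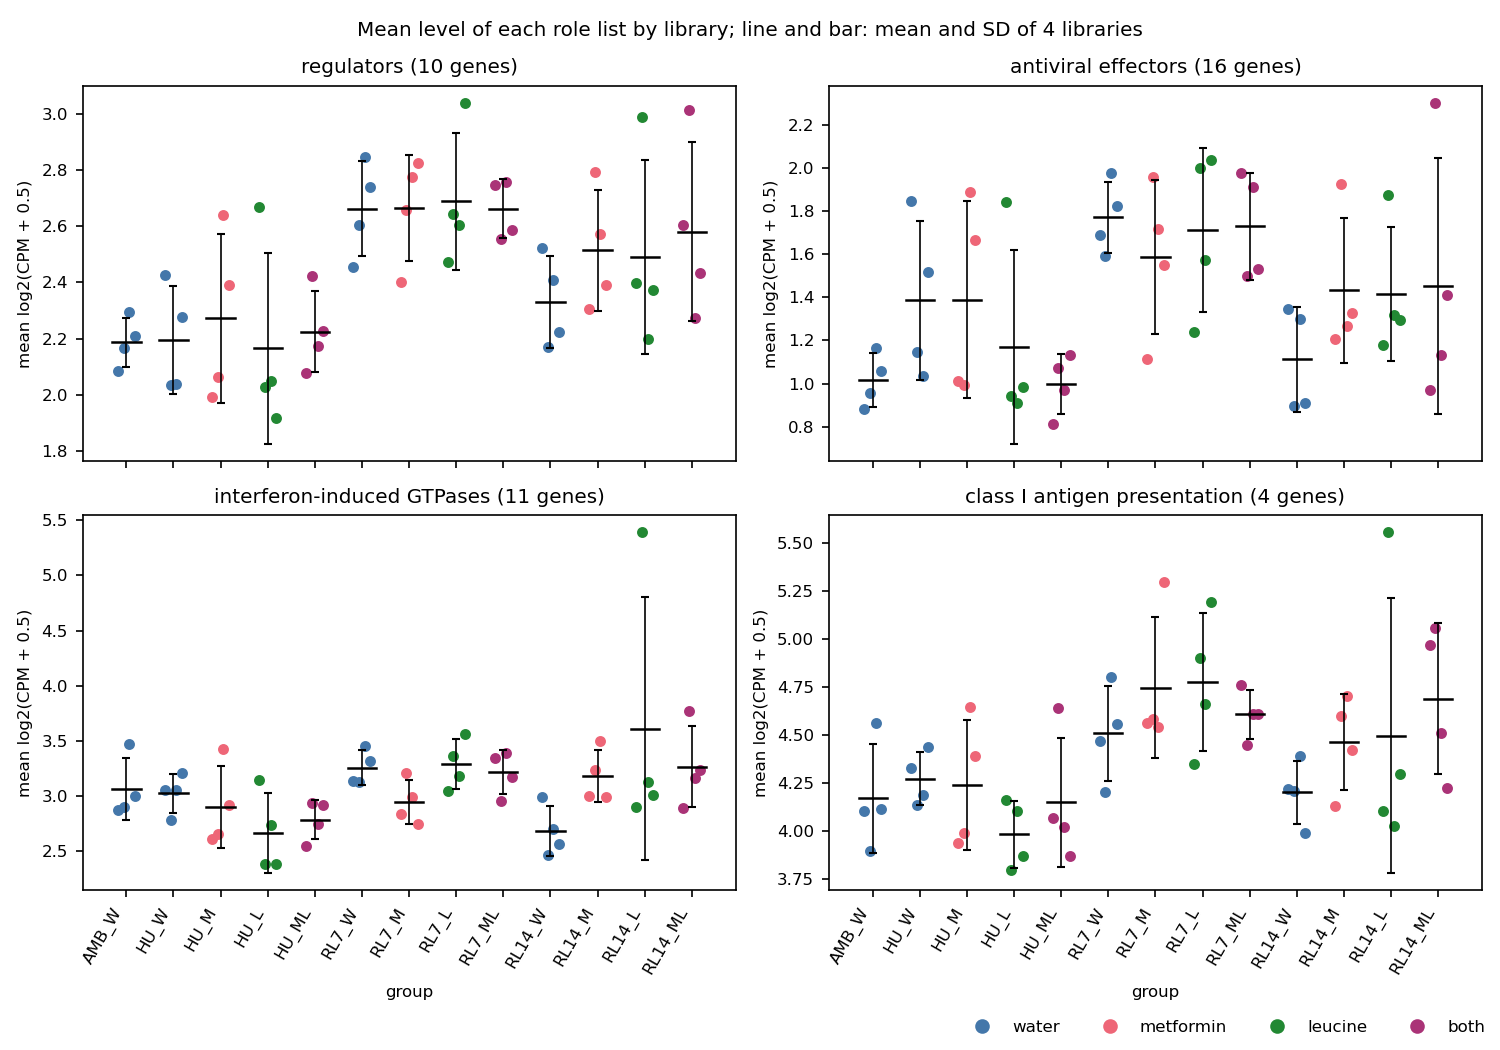
Mean log2(CPM + 0.5) of the genes of each role in every library, by group and drink, with the mean and SD of 4 libraries. The 7 d groups stand above the unloaded groups for regulators, effectors and class I genes, and RL14_L 2 stands alone at 5.39 among the GTPases.

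The comparison with the most libraries set the 16 at 7 d of reloading against the 16 at the end of unloading, averaged over the 4 drinks. Of the 41 genes 26 rose and 2 fell at 7 d. The 26 are 63.41% of the members, and 29.2% of all genes rose in this comparison (23.5% fell, and 52.7% changed in either direction). The median log2 fold change was 0.56 for the 41 and 0.05 for all genes. By role, 8 of 10 regulators rose and 1 fell, 9 of 16 effectors rose, 6 of 11 GTPases rose and 1 fell, and 3 of 4 class I genes rose. In bulk muscle a change in the number of cells of a type and a change in RNA per cell cannot be told apart.

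Macrophage, endothelial and adipocyte markers moved in the same comparison. Of 10 macrophage markers 8 rose and 1 fell (Cd163), with summed levels of 33.6 to 132 CPM in HU (median 71.3) and 47.02 to 228 CPM in RL7 (median 83.0). Fcgr1, the macrophage receptor for immunoglobulin G, rose by a log2 value of 2.07 (adjusted p = 8.24e-06). Of 5 endothelial markers 4 rose (summed medians 140 and 183 CPM), of 4 adipocyte markers 4, of 4 fibroblast markers 3 and of 4 tested dendritic cell markers 2. No T, B or NK cell marker passed the filter on low counts. Of the neutrophil markers, Ly6g was at 0 in all 52 libraries and S100a9 passed the filter. The means of S100a8, S100a9, Retnlg and Cxcr2 were 0.0898, 0.113, 0.0630 and 0.0604 CPM in HU. In RL7 they were 0.115, 0.227, 0.0758 and 0.206 CPM, with SDs from 0.0678 to 0.219 CPM over both times. The part of these cells in the change of the interferon genes was not tested.

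The 5.8S ribosomal RNA was also lower at 7 d, at 0.379 to 7.39 CPM against 2.07 to 32.8 CPM in HU. With its level as a covariate 0 of the 41 genes passed, and 6 GTPases changed sign. The log2 fold change of Ifi27 was then 0.78 (adjusted p = 0.0674) and that of Irf5 was 0.89 (adjusted p = 0.44). All RL7 libraries and 2 of the 16 HU libraries belong to the run of low 5.8S, so in this comparison its part can barely be told apart from that of time. The count of 28 changed genes was 20 without the 12 libraries that held over 16 CPM of the liver transcript Alb, and between 23 and 30 when any 1 library was left out.

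Among the regulators, Irf5 moved most. Its level ran from 0.217 to 1.71 CPM in HU (median 0.646), from 0.854 to 4.37 CPM in RL7 (median 1.84) and from 0.323 to 3.12 CPM in RL14 (median 1.15). It rose by 1.35 ± 0.25 on the log2 scale at 7 d (adjusted p = 1.54e-05), and the 2 ranges overlapped. Exons on the opposite strand overlap Irf5, as they do Irf1, Irf3, Irf7, Usp18, Ifi35, Gbp2 and Tap1, and the strand setting of the counting is not given in the sources used here. If strand was not used in counting, reads of such pairs were not separated.

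Irf1 rose by 0.64 ± 0.11 (adjusted p = 3.9e-06), from 2.49, 3.30 and 5.03 CPM in HU (lowest, median, highest) to 4.47, 5.57 and 7.33 CPM in RL7. Every RL7 library lay above the HU median. Irf7, the amplifier of type I interferon transcription, rose by 0.96 ± 0.29 (adjusted p = 0.00532), from 0.935, 1.62 and 5.06 CPM to 1.82, 4.50 and 11.2 CPM. Stat2 and Irf9, parts of the ISRE-binding complex, rose by 0.55 ± 0.13 and 0.42 ± 0.11 (adjusted p = 3.24e-04 and 0.00183). Irf8, a factor of myeloid cells, rose by 0.56 ± 0.15. Irf3, which answers viral nucleic acid before any interferon is made, rose by 0.29 ± 0.07 (adjusted p = 4.28e-04), and Usp18, which removes Isg15 from proteins and damps the receptor, by 0.74 ± 0.18. Irf2 was the regulator that fell, by 0.17 (SE 0.06, adjusted p = 0.019). Ifih1 (Mda5), a sensor of double-stranded RNA, did not pass (0.01 ± 0.10).

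Among the effectors, Ifi27 had the smallest p. Its level was 2.81, 3.73 and 5.98 CPM in HU and 4.52, 6.96 and 10.97 CPM in RL7, with a log2 fold change of 0.86 ± 0.11 (adjusted p = 1.86e-08). The lowest RL7 library lay above the HU median. Bst2 (tetherin), which holds budding virions at the cell surface, rose from 0.426, 0.865 and 2.48 CPM to 1.27, 2.18 and 4.47 CPM, a log2 change of 1.16 ± 0.21 (adjusted p = 1.28e-05). Mx2 rose by 1.16 ± 0.22 (adjusted p = 3.33e-05), and Ifi35, a protein that binds other interferon-induced factors, by 0.68 ± 0.12 (adjusted p = 7.77e-06). Ifi44, Oasl2, Ifit3, Xaf1 and Rtp4 rose by 0.51 to 0.92 on the log2 scale.

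The other 7 effectors did not pass. Isg15, the ubiquitin-like protein conjugated during the interferon response, lay between 0 and 1.58 CPM in the 32 libraries, and its log2 fold change of 0.95 ± 0.42 missed the threshold (adjusted p = 0.0553). The RNA-binding Ifit1 and Ifit2 had values of 0.10 ± 0.20 and 0.07 ± 0.17, although Ifit3 of the same family rose. Rsad2 had a value of -0.40 ± 0.22 (adjusted p = 0.117), the 1 negative estimate among the effectors. HU_M 3 held 39.3 CPM of it, 3.06 times the next of 52 libraries, and the median was 6.53 CPM in HU and 6.74 CPM in RL7. Of the 150-base stretches of Oas1a and Ifit3 transcripts, 32.43% and 18.55% also occur in other genes, so their counts are less certain.

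Among the GTPases, Gbp5, which promotes inflammasome assembly, rose by 0.68 ± 0.21 (adjusted p = 0.00576), from 1.40, 2.87 and 4.37 CPM to 3.07, 4.46 and 6.55 CPM. Irgm2, Gbp3, Gbp4, Igtp and Gbp9 rose by 0.39 to 0.63. Gbp6 fell by 0.77 (SE 0.21, adjusted p = 0.00212), from 1.64, 4.61 and 9.59 CPM to 1.63, 2.705 and 4.59 CPM, and 59.07% of its 150-base stretches occur in other genes. Gbp2, Gbp7, Irgm1 and Iigp1 did not pass, with values of 0.14 to 0.38.

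Among class I genes, H2-D1 rose by 0.81 ± 0.14 (adjusted p = 8.89e-06), from 15.9, 22.4 and 35.1 CPM to 31.3, 35.5 and 81.0 CPM. Only HU_ML 4, at 35.1 CPM, overlapped the RL7 range. H2-K1 rose by 0.50 ± 0.11 (adjusted p = 1.68e-04), and Tap1, a subunit of the transporter that carries peptides to class I molecules, by 0.95 ± 0.24 (adjusted p = 0.0011). B2m did not follow its heavy chains. It was at 58.4, 97.5 and 143 CPM in HU and at 70.1, 79.3 and 139 CPM in RL7, a log2 fold change of -0.08 ± 0.12 (adjusted p = 0.569).

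**Figure D3:**
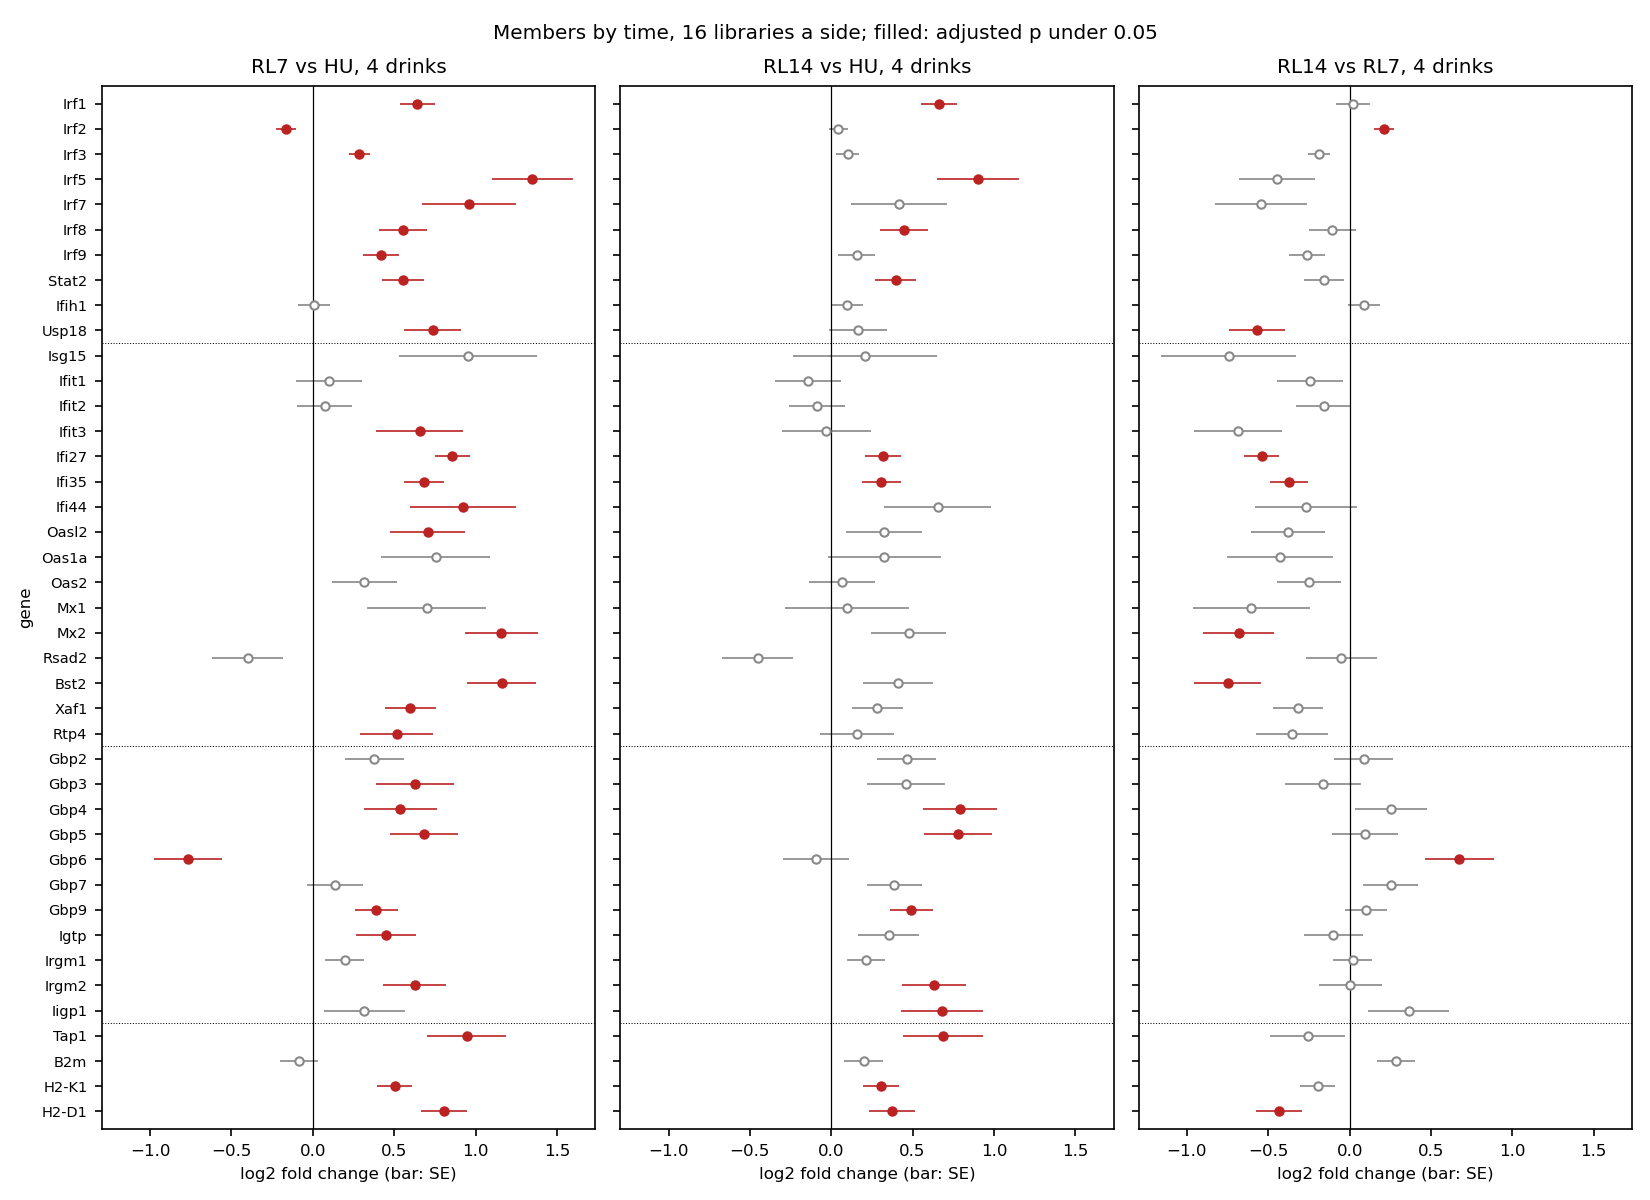
Log2 fold change (point) and SE (bar) of each gene between times, averaged over the 4 drinks, 16 libraries a side; filled points passed the edgeR test. At 7 d against HU 26 genes lie to the right of 0 and filled, and between 14 d and 7 d the 6 filled genes to the left include Ifi27, Bst2 and Mx2.

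At 14 d of reloading 14 of the 41 genes stood above the HU libraries and none below (34.15%, against 16.4% of all genes higher, 13.3% lower and 29.7% called in either direction). The median log2 fold change was 0.33, against 0.04 for all genes. These were 4 regulators, 2 effectors, 5 GTPases and 3 class I genes. Irf1 differed by 0.66 ± 0.11 (adjusted p = 6.94e-06), as at 7 d, with levels of 4.14, 5.26 and 13.1 CPM. Gbp4 and Gbp5 rose by 0.79 ± 0.23 and 0.78 ± 0.21 (adjusted p = 0.00708 and 0.00422). RL14_L 2 held 89.3 CPM of Gbp4 and 25.3 CPM of Gbp5, against means of 11.6 and 3.16 CPM in the other RL14_L libraries. The median of Gbp4 was 10.3 CPM in HU and 11.4 CPM in RL14, and that of Gbp5 was 2.87 and 3.73 CPM. Of 10 macrophage markers 0 rose and 1 fell in this comparison, and 4 of 5 endothelial markers rose. The 7 d and the 14 d comparison share the 16 HU libraries. Without RL14_L 2, the library at 13.1 CPM of Irf1, 5 genes passed instead of 14. With 5.8S as a covariate 11 passed.

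From 7 d to 14 d, 6 genes fell and 2 rose (7.35% of all genes rose, 6.13% fell and 13.5% were called). The 6 were Bst2, Mx2, Usp18, Ifi27, H2-D1 and Ifi35. Bst2 fell by 0.75 (SE 0.20, adjusted p = 0.0119), to 0.694, 1.28 and 2.91 CPM, and Ifi27 by 0.54 (SE 0.11, adjusted p = 7.8e-04), to 3.16, 4.89 and 7.47 CPM. Gbp6 rose by 0.67 ± 0.21 (adjusted p = 0.0274) and Irf2 by 0.21 ± 0.06 (adjusted p = 0.0168). All 16 effectors had negative estimates, where 49.04% of all genes had positive ones. With RL14_L 2 and RL14_ML 3 left out 1 gene rose and 16 fell. Of the 10 macrophage markers 7 fell over the same interval, Fcgr1 by 1.32 on the log2 scale, and their part was not tested. With the 5.8S level as a covariate 0 of the 41 passed. Without RL7_L 5 or RL14_ML 6 the count was 5, without RL14_L 4 it was 4 and without RL14_L 2 it was 13. It was 1 without the Alb-rich libraries and 5 with the replicate number as a block.

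**Figure D4:**
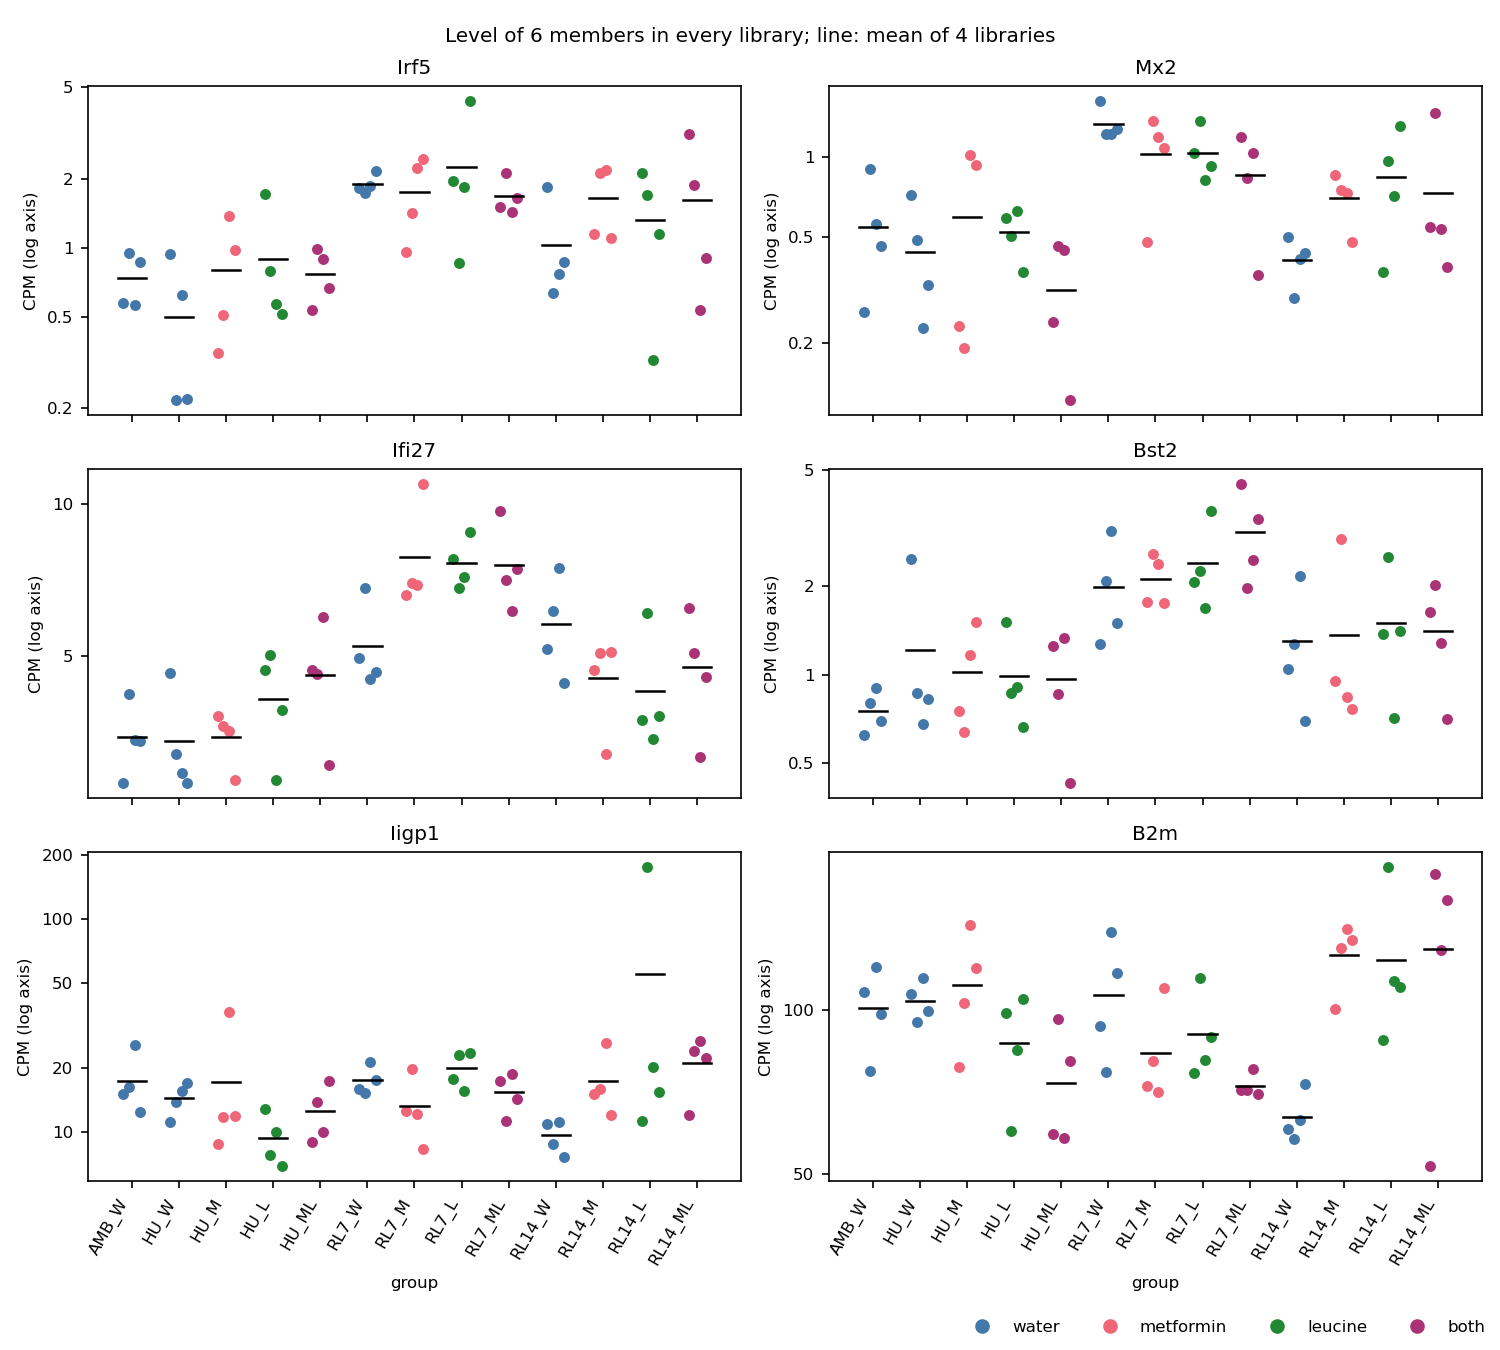
Level of 6 of the genes in every library (CPM, log axis) by group and drink, with the mean of 4 libraries as a line. Irf5, Mx2, Ifi27 and Bst2 are highest at 7 d, Iigp1 has 1 library at 175 CPM, and the B2m values of RL14_W lie between 58.1 and 73.2 CPM, below those of RL14_M and RL14_L.

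The step from HU to 7 d was also taken within each drink, a comparison added after the data were seen. With leucine 14 genes rose (34.15%) and 2 fell (4.878%), where 14.7% of all genes rose and 13.9% fell (28.6% called). With metformin 6 rose (14.63%) and 2 fell (4.878%), where 15.4% of all genes rose and 14.2% fell. The 19.51% of members called with metformin lay below the 29.6% of all genes. With the combination 3 rose (7.317%), where 2.69% of all genes rose (5.91% called). Ifi27 rose with each of the 3, by 1.19 ± 0.22 with metformin, 0.90 ± 0.22 with leucine and 0.72 ± 0.22 with the combination (adjusted p = 1.33e-04, 0.00245 and 0.0367). With metformin it went from 3.81, 3.64, 3.56 and 2.84 CPM to 6.62, 6.98, 6.93 and 10.97 CPM, without overlap. Bst2 rose with the combination from 1.25, 0.861, 1.34 and 0.426 CPM to 4.47, 1.98, 2.46 and 3.40 CPM, also without overlap (log2 fold change 1.65 ± 0.42, adjusted p = 0.0123).

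Whether the time course differed by drink was tested over all genes with edgeR, which called B2m alone of the 41, whereas DESeq2 called 3 members and limma-voom 7. The shares of all genes called by DESeq2 and limma-voom are not given here. Without the libraries over 16 CPM of Alb the count was 0 with leucine (median log2 fold change 0.33 in place of 0.80), 5 with metformin and 0 with the combination, and with the 5.8S covariate it was 0 with each. With RL7_M 4 and HU_M 3 left out it was 2 with metformin. Several counts moved when 1 library was left out. With leucine the count of 16 was 10 without HU_L 2, 8 without HU_L 5 and 6 without RL7_L 5. With metformin the count of 8 was 4 without RL7_M 4 and 5 without HU_M 1, 2 or 4. With the combination the count of 3 was 1 without HU_ML 1 or RL7_ML 3, and 0 without HU_ML 4, HU_ML 6 or RL7_ML 1. RL7_L 5 held the most macrophage marker RNA (228 CPM) and RL7_M 4 the most adipocyte marker RNA (284 CPM, against a median of 13.6 CPM in RL7).

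From 7 d to 14 d within a drink, Ifi27 fell with metformin and with leucine, by 0.80 and 0.84 (SE 0.22 in both, adjusted p = 0.0165 and 0.0409). Gbp6 rose with metformin by 1.27 ± 0.42 (adjusted p = 0.0442). The 7 d and 14 d libraries gave 2 changed genes with metformin (11.8% of all genes called) and 1 with leucine (1.33%). With the combination 0 passed (1.88%) and 6 had p under 0.05 before adjustment (13.9% of all genes), with 1 call by DESeq2 and 10 by limma-voom. With metformin the count was 0 without RL7_M 4 and 1 without any other library. With leucine it was 0 without RL7_L 1, RL7_L 5, RL14_L 4 or RL14_L 5, and 4 without RL14_L 2. With the combination it was 6 without RL14_ML 1 and 1 without RL14_ML 3.

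Metformin, leucine and the combination were each compared with water at matched times, since these are the treatments under study. At the end of unloading and at 7 d of reloading none of the 41 genes passed the edgeR test for any drink. The shares of all genes called were 0% (HU_M), 0.00600% (HU_L), 0.0480% (HU_ML), 0.138% (RL7_M), 0.0780% (RL7_L) and 0.00600% (RL7_ML). Before adjustment 0, 0, 7, 1, 1 and 3 members had p under 0.05 in these 6 comparisons, where 3.88%, 2.99%, 6.23%, 13.7%, 9.01% and 9.10% of all genes did. DESeq2 and limma-voom also called 0 in each.

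At 14 d of reloading 1 gene passed with metformin, 3 with leucine and 1 with the combination, and the gene with metformin and with the combination was B2m. In RL14_W it was at 60.5, 58.1, 63.0 and 73.2 CPM. It was at 100.3, 129.9, 141 and 135 CPM in RL14_M, all above water (log2 fold change 0.99 ± 0.24, adjusted p = 0.0177). In RL14_ML it was at 51.7, 178, 129 and 159 CPM (1.02 ± 0.24, adjusted p = 0.0287). Here 3 libraries lay above all of RL14_W, and RL14_ML 1 below. In RL14_L, at 88.1, 183, 113 and 110.1 CPM, all were above water, with a log2 fold change of 0.95 ± 0.24 that missed the threshold (adjusted p = 0.0588).

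B2m was the 1 gene called with metformin (5.12% of all genes called, 1.54% higher) and with the combination (0.714% called, 0.372% higher). The 3 comparisons share the 4 RL14_W libraries, whose B2m lay below the AMB_W range of 77.2 to 120 CPM. These 4 also had the low 5.8S level, 0.294 to 0.998 CPM against 11.56 to 23.04 CPM in RL14_M, 9.15 to 26.9 CPM in RL14_L and 16.6 to 33.03 CPM in RL14_ML, so drink and 5.8S level cannot be told apart at 14 d. B2m was also the 1 member whose drink effect differed between times in edgeR's interaction test (adjusted p = 0.0363; 0.930% of all genes). The metformin call was lost without RL14_W 3 (adjusted p = 0.0849), RL14_W 4 (0.0748) or RL14_M 6 (0.0711), and 2 genes passed without RL14_W 1. The call with the combination was lost without RL14_W 1, 3 or 4, RL14_ML 3 or RL14_ML 6 (adjusted p between 0.072 and 0.157), and 9 genes passed without RL14_ML 1.

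The interaction call was lost without HU_W 3, HU_ML 1, RL7_W 3 or 4, any of the 4 RL14_W libraries, RL14_ML 3 or RL14_ML 6, with adjusted p between 0.0515 and 0.14. The count of members in that test was 5 without RL14_ML 1 and 2 without RL14_L 1 or 5. With 5.8S as a covariate, 0 genes passed with metformin, with the combination or in the interaction. The B2m estimates were then 0.85 with metformin (adjusted p = 0.9997) and 0.87 with the combination (adjusted p = 0.761), and the medians of the 41 genes were 0.87 and 1.04, above the 0.52 and 0.66 without the covariate.

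With leucine at 14 d, 3 GTPases were called, and 1 library carried them. Iigp1, which breaks down vacuoles around parasites, was between 7.68 and 11.2 CPM in the 4 RL14_W libraries and at 11.4, 175, 20.2 and 15.5 CPM in RL14_L (log2 fold change 2.52 ± 0.52, adjusted p = 0.0228). Gbp2 was at 4.93, 3.67, 2.88 and 3.73 CPM against 5.86, 28.2, 6.98 and 6.11 CPM (1.63 ± 0.37, adjusted p = 0.0313). Gbp7 was at 10.6, 7.19, 7.53 and 7.03 CPM against 9.61, 54.5, 13.8 and 11.9 CPM (1.48 ± 0.34, adjusted p = 0.0418). In each case RL14_L 2 stood far above. The other 3 leucine libraries also lay above all 4 water libraries for Iigp1 and Gbp2, and for Gbp7 2 of the 3 did. Over all genes 0.294% were called and 0.204% were higher.

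All 11 GTPases had p under 0.05 before adjustment in this comparison, as 16.7% of all genes did, with a median log2 fold change of 1.48. Without RL14_L 2 no member passed, and the values were 0.69 for Iigp1 (adjusted p = 0.266), 0.72 for Gbp2 (0.188) and 0.54 for Gbp7 (0.261). The count was also 0 without RL14_W 3 or 4, 1 without RL14_W 1 or 5, 8 without RL14_L 1 and 5 without RL14_L 5. It was 0 with the replicate number as a block. The median of the 11 GTPases was 0.44 with RL14_L 2 and RL14_ML 3 both left out, and 8 of 11 stayed above 0.

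RL14_L 2 was the highest of 52 libraries for 16 of the 41 genes, among them all 11 GTPases. Its ratio to the mean of the other 3 leucine libraries had a median of 5.50 over the GTPases, 2.28 over class I genes, 1.83 over regulators and 1.63 over effectors. RL14_ML 3 was the highest library for 9 genes, 8 of them effectors, and its ratio to the other 3 libraries of its group had a median of 2.88 over effectors and 1.56 over GTPases. RL14_ML 3 also had the second highest mean log2 level of the GTPases (3.77, against 5.39 in RL14_L 2). RL14_L 2 was the highest library for 0 of the 16 effectors and over 2-fold above the others of its group for 2. Its mean log2 effector level was 1.88, against 2.30 in RL14_ML 3 and 2.04 in RL7_L 5. In RL14_L 2 the summed NK cell markers, 0.920 CPM, were the highest of the 16 RL14 libraries, and its T cell markers (1.21 CPM) the second highest. Of all 52 libraries RL7_ML 1 held the most NK cell marker RNA (1.02 CPM), with a mean log2 GTPase level of 3.35. HU_M 3 held the most T cell marker RNA (5.13 CPM), with a mean log2 GTPase level of 3.43. No T or NK cell marker passed the filter on low counts. RL14_ML 1 held 0.843 CPM of NK cell markers with a mean log2 GTPase level of 2.89, and RL14_ML 3 held 0.330 CPM. The macrophage markers of RL14_L 2 (72.8 CPM) lay near the RL14 median of 69.8 CPM. The part of these cells was not tested.

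**Figure D5:**
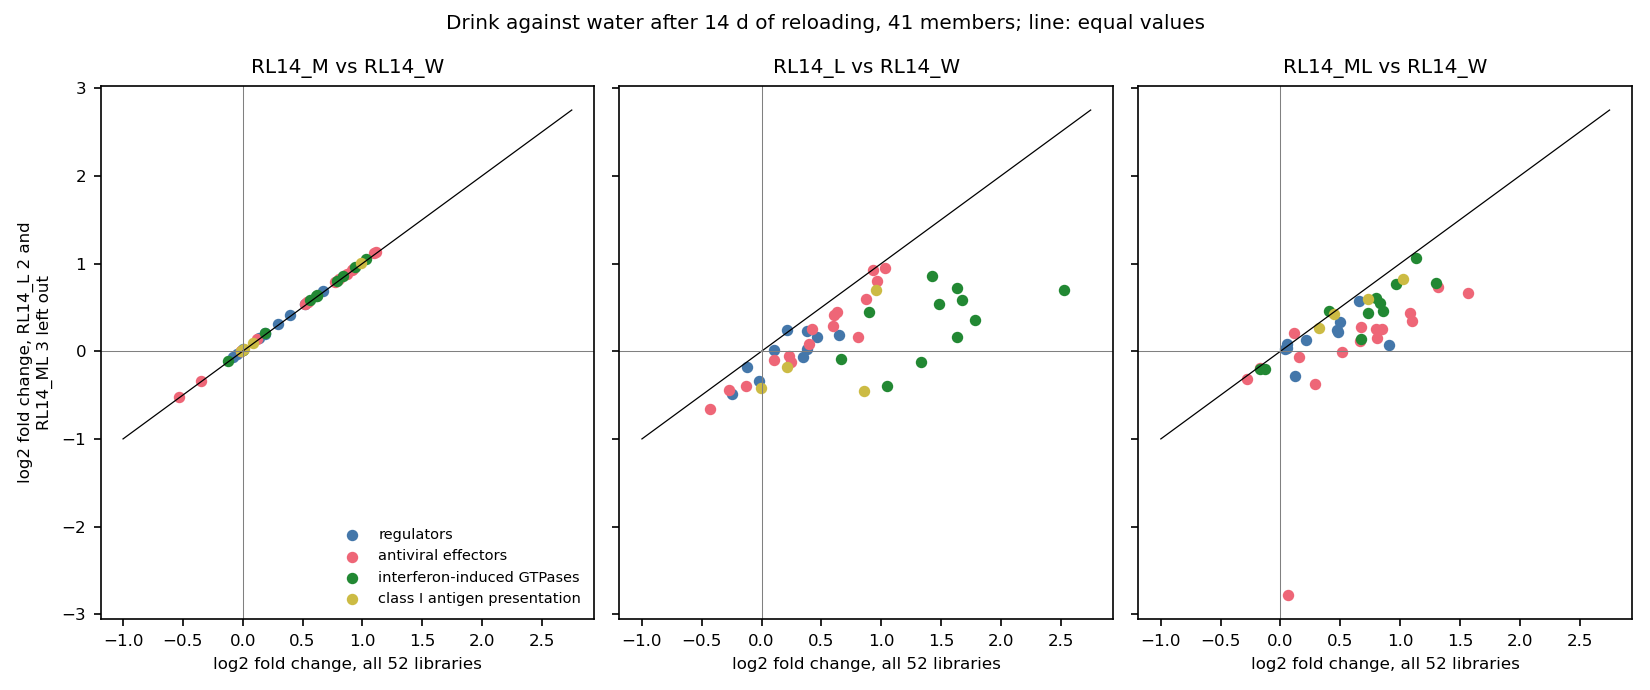
Log2 fold change of each drink against water at 14 d for the 41 genes, with all 52 libraries (x axis) and without RL14_L 2 and RL14_ML 3 (y axis), coloured by role, with the line of equal values. The 11 GTPases with leucine lie far below the line, between 0.67 and 2.52 on the x axis, and the values with metformin stay on it.

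The combination was also set against each single compound, 6 comparisons in all. None of the 41 genes passed in any with edgeR. The shares of all genes called were 0.150% (HU_ML against HU_M), 0.0960% (against HU_L), 0% at 7 d against both, 0.0240% (RL14_ML against RL14_M) and 0% (against RL14_L). Before adjustment 5, 0, 0, 0, 0 and 8 members had p under 0.05, where 10.9%, 9.79%, 3.80%, 3.46%, 9.68% and 7.04% of all genes did. DESeq2 called 1 in the first and 0 in the others, and limma-voom 0 in all. The first count was 1 without HU_M 1 or HU_M 2, and the last was 2 without RL14_L 1. Averaged over the 3 times, none of the 41 differed from water with metformin (0.0480% of all genes), leucine (0.0720%) or the combination (0.0360%), with 0, 3 and 2 at p under 0.05 before adjustment (5.08%, 4.87% and 5.73% of all genes) and 0 by DESeq2 or limma-voom. A test of any difference among the 13 groups called 22 of the 41 genes (53.66%), against 39.97% of all genes.

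The rest of the pathway was read from 106 further genes, of which 94 passed the filter. At 7 d against HU 59 rose (62.77%) and 9 fell (9.574%), with a median log2 fold change of 0.40, where 29.2% of all genes rose and 23.5% fell. The macrophage, endothelial and adipocyte markers and the 5.8S level described above moved in this comparison too, and their part was not tested. All 5 tested receptor genes changed, as 52.7% of all genes did. Ifnar1 and Ifnar2, the type I receptor chains, rose by 0.27 ± 0.06 and 0.60 ± 0.10 (adjusted p = 1.98e-04 and 5.05e-06). Of the interferon gamma receptor, Ifngr2 rose by 0.38 ± 0.07 and Ifngr1 fell by 0.28 (SE 0.07, adjusted p = 9.26e-04).

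Of 12 signalling genes 5 rose (41.67%) and 4 fell (33.33%). Socs3, a feedback inhibitor of Jak signalling, rose from 0.489, 1.27 and 2.25 CPM to 1.41, 2.62 and 6.22 CPM (log2 fold change 1.25 ± 0.22, adjusted p = 7.64e-06). It fell again by 1.01 (SE 0.21) from 7 d to 14 d. Pias1, a SUMO ligase that inhibits the pathway, fell by 0.38 (SE 0.05, adjusted p = 4.97e-08) and rose by 0.26 ± 0.05 from 7 d to 14 d. Of 14 nucleic acid sensors 8 rose and 1 fell, and Tmem173 (Sting) rose by 0.94 ± 0.18 (adjusted p = 2.7e-05).

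Most genes of class I antigen presentation and all 7 of class II rose at 7 d. B2m, the class I light chain, did not (log2 fold change -0.08 ± 0.12, adjusted p = 0.569). Of the cell markers, 8 of 10 macrophage markers and the dendritic cell markers Itgax and Clec9a rose too. With the 5.8S covariate H2-D1, H2-K1 and Tap1 no longer passed (adjusted p = 0.56, 0.568 and 0.962). Of 18 genes of the immunoproteasome and peptide loading 13 rose and 1, the general chaperone Canx, fell. Psmb8 and Psmb10, catalytic subunits of the immunoproteasome, rose by 0.95 ± 0.19 and 1.07 ± 0.16 (adjusted p = 5.03e-05 and 6.28e-07). Tap2 and Tapbp, which bring peptides to class I molecules, rose by 0.92 ± 0.13 and 0.78 ± 0.11. All 7 genes of MHC class II, which presents peptides on dendritic cells, B cells and macrophages, rose, with a median of 1.06.

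Among them, Cd74, the invariant chain of class II, went from 4.96, 14.4 and 54.0 CPM in HU to 20.5, 30.4 and 74.4 CPM in RL7 (1.06 ± 0.24, adjusted p = 3.79e-04). Ciita, the master regulator of class II genes, rose by 1.46 ± 0.25 (adjusted p = 6.83e-06). At 14 d against HU 5 of the 7 class II genes were still higher, and Cd74 missed the threshold (0.61 ± 0.24, adjusted p = 0.0541). Over the whole list 34 genes rose (36.17%) and 7 fell (7.447%) in that comparison, where 16.4% of all genes rose and 13.3% fell. From 7 d to 14 d 1 rose (1.064%) and 10 fell (10.64%), where 7.35% of all genes rose and 6.13% fell.

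Of 38 other interferon-induced genes 22 rose and 2 fell at 7 d. Ifi27l2a, a relative of Ifi27, rose by 2.32 ± 0.32 (adjusted p = 1.42e-07) and Rnf213, a large ubiquitin ligase, by 0.60 ± 0.08 (adjusted p = 4.57e-08). Ifi207, a DNA-binding protein of the p200 family, went the other way. It was at 9.46, 8.51, 12.9 and 11.2 CPM in AMB_W, 24.5, 29.5, 23.04 and 29.1 CPM in HU_W, 12.3, 11.6, 14.5 and 12.7 CPM in RL7_W and 7.86, 8.85, 7.18 and 8.55 CPM in RL14_W. The HU_W libraries lay above every other water library. It rose by 1.33 ± 0.20 with unloading (adjusted p = 3.06e-05), and fell by 1.05 (SE 0.20, adjusted p = 6.65e-04) and 1.71 (SE 0.21, adjusted p = 2.54e-07) at 7 d and 14 d against HU_W. It changed with unloading, where none of the 41 genes passed.

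In the drink comparisons of this wider list, the calls were at 14 d. With metformin 4 of 94 passed (4.255%, all higher), where 1.54% of all genes were higher and 5.12% were called, and all 4 RL14_W libraries had the low 5.8S level. With metformin Ifi207 rose by 0.92 ± 0.21 (adjusted p = 0.0118), Tlr3, an endosomal RNA sensor, by 0.93 ± 0.22 (adjusted p = 0.0176), Ifitm3, which blocks virus entry, by 0.68 ± 0.19 (adjusted p = 0.0303) and Ifi203 by 0.74 ± 0.21 (adjusted p = 0.0348). With leucine Tgtp1, a GTPase, rose by 1.95 ± 0.47 (adjusted p = 0.049). Tgtp1 stood at 7.65 CPM in RL14_L 2 against 1.32, 1.29 and 0.887 CPM in the other leucine libraries, the same library that carried the Gbp and Iigp1 values.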

How the data were processed

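The authors deposited 1 table of whole-number read counts per Ensembl gene for the 52 libraries, with no normalization. Per the labels' protocols, stranded total RNA libraries were made after removal of ribosomal RNA and sequenced in pairs. STAR 2.7.3a, featureCounts 1.6.3 and DESeq2 1.30.0 are named in the submitters' processing notes, with the build GRCm38. The annotation release, the strand setting and the treatment of reads shared between genes are not given in the sources used here, and this matters for genes with near copies or overlapping neighbours.

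Of 55487 Ensembl identifiers, 55227 were matched to symbols of GENCODE vM21. The 41 genes, the pathway and cell marker lists and the rule for named genes were chosen with earlier results of these data known. Genes given in every library were those of each role with the smallest p in the test of any difference among groups, plus those called in a comparison of 2 groups. Pathway genes named were at most 4 changed genes a list by smallest p, with Psmb8 and Cd74. One gene that the rule named is not reported here. Library totals were 15605044 to 32492548 counts, which sets the precision of low genes such as Isg15 and Mx1.

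Counts were filtered with filterByExpr (minimum count 10, 16668 genes kept), scaled by TMM and fitted with edgeR 4.0.16 (R 4.3.3) as 13 group means with 39 residual degrees of freedom. The robust quasi-likelihood F test was used, with Benjamini-Hochberg adjustment over all genes tested and a threshold of 0.05. Averages over drinks or times and the interaction were contrasts of the same fit. DESeq2 1.42.0 and limma 3.58.1 (voom with quality weights) served as alternatives, beside RLE scaling, no filter, fits of only the groups compared, a replicate block and fits leaving out each library. Mean log2 levels used a pseudocount of 0.5 CPM. Of 78 pairs of libraries within a group none had counts that agreed within sampling noise (lowest chi-square 7.47 per degree of freedom). The fit was tested on simulated data before use. A group label was taken from the title of each sample.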

Additional observations from a re-analysis of the deposited data

Results flagged for a closer look

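Each group of 4 libraries was checked for a library far from the other 3, by Dixon's test, for the named genes and for the mean log2 level of each role. Of 260 series of 4 values 31 (11.92%) held such a library, 29 of them high and 2 low. Over all 41 genes 59 of 533 series (11.07%) did. Chance gives about 1 in 20 for independent, normally distributed values. Single genes were checked as CPM without a log scale, and genes of the same libraries are not independent. The 2 shares are therefore not a measured excess over that rate.

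RL14_L 2 was far above its group for the mean log2 level of all 41 genes (3.449) and of the GTPases (5.391). It was also far above for Iigp1 (175 CPM), Gbp4 (89.34 CPM), Gbp7 (54.52 CPM), Gbp2 (28.18 CPM), Gbp5 (25.28 CPM), H2-K1 (44.55 CPM) and Ifi27 (6.101 CPM). RL7_M 4 was far above its group for class I genes, with a mean log2 level of 5.296, H2-D1 at 81.04 CPM and H2-K1 at 45.24 CPM, and for Ifi27 at 10.97 CPM. This library also had the highest adipocyte markers of the RL7 libraries, 284 CPM. HU_M 3 stood high for Iigp1 (36.73 CPM) and Gbp2 (9.347 CPM), and held 17.1 CPM of B cell and 5.13 CPM of T cell markers, the highest of the HU libraries.

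AMB_W 4 stood high for Gbp4 (24.21 CPM) and Gbp5 (7.453 CPM). HU_L 1 stood high in the mean log2 level of all genes (2.619) and of the effectors (1.84), as RL14_M 2 did for the effectors (1.928) and for Bst2 (2.913 CPM). Other high libraries were HU_W 1 for Bst2 (2.481 CPM), RL7_W 1 for Mx2 (1.625 CPM), RL14_ML 3 for Mx2 (1.46 CPM) and Irf1 (6.168 CPM), RL14_W 1 for Irf1 (5.625 CPM) and Gbp7 (10.6 CPM), and RL7_ML 4 for Ifi35 (4.875 CPM) and B2m (78.05 CPM). The 2 low libraries were RL14_L 1 for Irf3 (5.494 CPM) and RL14_W 5 for H2-D1 (21.96 CPM).

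For B2m the effect of the drinks differed between the 3 times by the interaction test over all genes in edgeR (adjusted p = 0.03633). At 14 d the B2m estimates were higher than in water by 0.99, 0.95 and 1.02 on the log2 scale with metformin, leucine and the combination. The leucine value missed the threshold (adjusted p = 0.0588 in edgeR), and RL14_ML 1 lay below every RL14_W library. The 5.8S level ran from 0.294 to 0.998 CPM in RL14_W and from 9.15 to 33.03 CPM with a compound. Drink and 5.8S level cannot be told apart at 14 d. With 5.8S as a covariate 0 of the 41 genes passed the interaction test. The call was also lost without any of several single libraries.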

How the results depend on the processing

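The number of changed genes stayed within 1.5 times the reported count in 316 combinations of a comparison with another setting and moved further in 102. RLE scaling and a spread estimate that is not robust moved none. For the named genes 1050 values kept their direction and side of the threshold, 260 lost the call and 10 reversed. Where a cause is not given, the cause was not tested. Shares of all genes called are not given for these other settings, so their counts have no background beside them. The alternatives that leave out pairs of libraries or the Alb-rich libraries, and the 5.8S covariate, were chosen after seeing the data.

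All 10 reversals came with the 5.8S covariate. For RL7 against HU over the drinks they were Gbp3 -0.084, Gbp4 -0.54, Gbp5 -0.35, Gbp9 -0.036, Igtp -0.48 and Irgm2 -0.29. For RL14 against RL7 it was Ifi35 0.15, and for RL7_L against HU_L they were Ifi35 -0.030, Gbp4 -0.43 and Gbp5 -0.60.

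With DESeq2 the count was 1 for HU_W against AMB_W, HU_ML against HU_M and RL14_ML against RL7_ML, and 3 for the interaction. It was 4 for RL14_L against RL7_L, and 5 for RL7_ML against HU_ML. It was 10 for RL14_L against RL14_W. With limma-voom the count was 1 for RL7_W against AMB_W, and 2 for HU_W against AMB_W. It was 3 for RL14_W against AMB_W and RL14_L against RL7_L, and 4 for RL7_W against HU_W and RL14_M against RL7_M. It was 6 for RL14_M against RL14_W, RL14_L against RL14_W and RL14_ML against RL14_W, and 7 for RL14_W against HU_W, RL7_ML against HU_ML and the interaction. It was 8 for RL14_W against RL7_W, and 10 for RL14_ML against RL7_ML. It was 13 for RL14 against RL7 over the drinks. With only the groups compared in the fit the count was 0 for RL14_ML against RL14_W and RL14_L against RL7_L, and 1 for HU_ML against HU_W, RL7_ML against RL7_W and RL14_L against RL14_W. It was 3 for HU_W against AMB_W, and 5 for RL14_W against AMB_W and RL14_M against RL7_M. It was 6 for RL7_W against HU_W, and 7 for RL14_M against RL14_W. It was 9 for RL7_W against AMB_W, RL14_W against HU_W and RL14_W against RL7_W, and 11 for RL7_ML against HU_ML. Without a filter on low counts the count was 0 for RL14_ML against RL14_W and the interaction, and 1 for RL7_W against HU_W, RL14_W against HU_W, RL14_L against RL14_W, RL14_M against RL7_M and RL7_ML against HU_ML. It was 3 for RL14 against RL7 over the drinks, and 5 for RL7_M against HU_M. It was 9 for RL14 against HU over the drinks, and 10 for RL7_L against HU_L. With RL14_L 2 and RL14_ML 3 left out the count was 0 for RL14_L against RL14_W and RL14_ML against RL14_W, and 1 for RL14_ML against RL7_ML. It was 2 for HU_W against AMB_W and RL14_M against RL14_W, and 4 for RL14_W against HU_W and RL14_L against RL7_L. It was 5 for RL14 against HU over the drinks and RL7_ML against HU_ML, and 17 for RL14 against RL7 over the drinks. With RL7_M 4 and HU_M 3 left out the count was 0 for RL14_M against RL7_M, and 1 for HU_W against AMB_W and RL14_ML against RL7_ML. It was 2 for RL7_M against HU_M. With RL14_ML 1 and 6 left out the count was 2 for RL14_W against AMB_W, RL14_W against RL7_W and RL14_M against RL14_W, and 3 for RL14_L against RL7_L and RL14_ML against RL7_ML. It was 4 for RL14_W against HU_W, and 5 for RL14_ML against RL14_W, RL14_M against RL7_M, RL7_ML against HU_ML and the interaction. It was 10 for RL14_L against RL14_W. Without the libraries over 16 CPM of Alb the count was 0 for RL7_W against HU_W, RL14_ML against RL14_W, RL7_L against HU_L, RL14_L against RL7_L, RL7_ML against HU_ML and the interaction, and 1 for RL14_W against HU_W, RL14_ML against RL14_L and RL14 against RL7 over the drinks. It was 5 for RL7_M against HU_M, and 6 for RL14_L against RL14_W. With the 5.8S covariate the count was 0 for RL7_W against HU_W, RL14_W against HU_W, RL14_M against RL14_W, RL14_ML against RL14_W, RL7 against HU over the drinks, RL14 against RL7 over the drinks, RL7_M against HU_M, RL14_M against RL7_M, RL7_L against HU_L, RL14_L against RL7_L, RL7_ML against HU_ML and the interaction, and 1 for RL14_L against RL14_W. It was 12 for the test of any difference.

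Leaving out each library in turn gave 0 to 3 genes for RL7_W against HU_W, RL14_W against HU_W and RL7_ML against HU_ML, 0 to 2 for RL14_M against RL14_W and RL14_ML against RL14_L, 0 to 8 for RL14_L and 0 to 9 for RL14_ML against RL14_W. It gave 0 to 1 for HU_ML against HU_M and RL14_M against RL7_M, 4 to 9 for RL7_M against HU_M, 6 to 24 for RL7_L against HU_L, 0 to 4 for RL14_L against RL7_L and 0 to 6 for RL14_ML against RL7_ML. Over the 4 drinks it gave 23 to 30 for RL7 against HU, 5 to 17 for RL14 against HU and 4 to 13 for RL14 against RL7, with 20 to 29 in the test of any difference and 0 to 5 in the interaction. The other counts stayed at 0. A count of 0 in a library allowed 0.0923 to 0.192 CPM, which limits what Isg15 and the interferon genes can show.

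The replicate numbers were also fitted as a block. Over 219 pairs of libraries with the same number the deviations from the group means had a median correlation of 0.0133 (lowest -0.305). Over the 1029 other pairs the median was -0.00225. Of the 219 pairs 47 exceeded 0.1, and 11 of 52 libraries correlated best with their own number. These values do not show whether a number stands for a shared cage, day or batch. With this replicate block the count was 0 for RL14_L against RL14_W, RL14_ML against RL14_W and RL14_L against RL7_L, 1 for RL14_M against RL7_M and 5 for RL14 against RL7 over the drinks. The other counts stayed within 1.5 times.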
